A study of Mus musculus with 6 samples.

Results

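Axon guidance ligands and receptors were compared between Il22r-/- and Il22r+/+ mouse ovarian granulosa cells. The genes were all protein-coding rows of the deposited count table whose symbols belong to the semaphorin, plexin, neuropilin, Slit, Robo, netrin, Unc5, ephrin and Eph families. This rule, which uses symbols and no measured value, gave 70 genes of the 55860 in the table, of which 37 encode ligands and 33 encode receptors. The labels give 3 libraries from Il22r-/- mice and 3 from Il22r+/+ mice. In both genotypes granulosa cells were purified on a density gradient, kept for 12 h in DMEM-F12 medium with fetal bovine serum and antibiotics, and then lysed for RNA sequencing. No treatment distinguished the groups, and IL-22 was not listed as added to either. The deleted part of the receptor gene, the strain, the age of the mice and the number of animals behind each library are not given in the labels. The question named by the design is therefore how the 2 genotypes differ, and here it was asked of guidance genes.

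Guidance cues were named for steering growing axons, but the same proteins regulate adhesion, motility and vessel growth in many tissues. Secreted and membrane semaphorins signal through plexins, and most class 3 semaphorins need a neuropilin as the binding partner. Slits are secreted and bind Robo receptors, netrins bind Dcc and the Unc5 receptors, and ephrins are membrane ligands for the Eph receptor tyrosine kinases on neighbouring cells. In the ovary these families are studied in follicle growth, in the vessels that surround the follicle and in the corpus luteum, the gland that granulosa cells help to form after ovulation.

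The libraries held between 14.9 and 18.1 M counted reads (M, mega-reads), and Il22r-/- replicate 3 was the shallowest. The 70 genes together took 0.463, 0.483 and 0.560% of the reads in the Il22r-/- libraries, against 0.701, 0.699 and 0.664% in the Il22r+/+ libraries. The receptor gene itself could not check the genotype labels, because Il22ra1 had 5, 2 and 0 reads in Il22r-/- libraries and 1, 5 and 4 reads in Il22r+/+ libraries. The first principal component, which separated the genotypes, held 89.3% of the variance, and on the second, with 4.21%, Il22r-/- replicate 3 stood at 14.5, against -8.93 to 1.22 for the other libraries. Granulosa markers were abundant in both genotypes, with a summed level of 8039 to 9149 CPM in Il22r-/- and 9949.7 to 10854 CPM in Il22r+/+ (CPM, counts per mega-read after normalisation). Of the 12 tested, 4 were called higher, or 33.3% against 23.6% of all tested genes, and 4 lower, or 33.3% against 22.1%. Nr5a2 was higher by 3.33-fold and Serpine2 lower by 3.26-fold. Fshr was higher by 22.7-fold but was scarce, at 5.99 ± 1.10 CPM in Il22r-/- and 0.257 ± 0.183 CPM in Il22r+/+. Of the remaining markers Cyp19a1, which encodes aromatase, had 1 read in all Il22r-/- libraries and 36 in all Il22r+/+ libraries, and Amh had 41 and 6, so both were close to absent.

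Levels of several other cell types' markers differed between the genotypes and accompany every value below. Over all tested genes 45.7% were called, 23.6% higher and 22.1% lower, and the counts of each list stand beside these shares. The 10 mesothelial and ovarian surface markers summed to 171 to 186 CPM in Il22r-/- libraries, against 953 to 969 CPM in Il22r+/+ libraries, and 8 of the 10 were called lower. The 9 tested macrophage markers of 11 were all called higher, with the summed level of the list at 28.8 to 88.6 CPM in Il22r-/- and 9.07 to 11.6 CPM in Il22r+/+. Stromal fibroblast markers summed to 231 to 398 CPM in Il22r-/- and 694 to 718 CPM in Il22r+/+, with 1 of 7 tested called higher and 2 lower. That is 42.9% called, close to the share over all tested genes. All 3 called fibroblast markers changed at least 2-fold, however, or 42.9% against 14.3% of all tested genes. Col1a2 was higher by 37.9-fold, and Dcn and Col3a1 were lower by 22.7-fold and 2.80-fold. Smooth muscle and pericyte markers summed to 365 to 591 CPM in Il22r-/- and 282 to 337 CPM in Il22r+/+, with 4 of 7 tested called higher and 2 lower. Theca markers summed to 1485 to 1862 CPM in Il22r-/- and 757 to 952 CPM in Il22r+/+, nearly all of it from Cyp11a1, which was called higher by 2.51-fold, and Star, which was called lower by 2.27-fold. Schwann and glial markers summed to 104 to 139 CPM in Il22r-/- and 169.8 to 186 CPM in Il22r+/+, with 1 of 3 tested called higher, 1 lower and Sox10 at 0 in all libraries. Neuron markers summed to 105 to 115 CPM in Il22r-/- and 85.9 to 93.3 CPM in Il22r+/+, with 3 of 5 tested called higher, 2 lower and Nefl at 0. Endothelial markers summed to 5.25 to 10.1 CPM in Il22r-/- and 3.86 to 6.28 CPM in Il22r+/+, and of 4 tested Kdr and Pecam1 were called higher and Tek lower. Oocyte markers at most 2.99 CPM and epithelial markers at most 1.16 CPM in any library, with Krt5 at 0. The part of these cells in the results below was not tested. In bulk RNA, fewer cells of a type and less RNA per cell cannot be told apart.

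Promoters of 2 ligands and 2 receptors are shown because their genes are known partners or belong to partner families and were called changed. Netrin-4 and its family's receptor Unc5b moved in opposite directions, and Sema7a and its receptor Plxnc1 both fell. Each run is the 250 bases before the RefSeq start of the gene, read 5′ to 3′ on the gene's strand, from RefSeq on GRCm38.p6. Ntn4 is at chr10:93640799-93641048 on the plus strand, Unc5b at chr10:60831582-60831831 on the minus strand, Sema7a at chr9:57939862-57940111 on the plus strand and Plxnc1 at chr10:94944846-94945095 on the minus strand.
Ntn4: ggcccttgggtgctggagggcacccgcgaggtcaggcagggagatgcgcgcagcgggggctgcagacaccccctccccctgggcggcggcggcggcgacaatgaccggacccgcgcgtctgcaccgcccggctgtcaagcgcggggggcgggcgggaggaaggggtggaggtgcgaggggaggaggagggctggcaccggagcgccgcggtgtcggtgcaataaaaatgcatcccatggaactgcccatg
Unc5b: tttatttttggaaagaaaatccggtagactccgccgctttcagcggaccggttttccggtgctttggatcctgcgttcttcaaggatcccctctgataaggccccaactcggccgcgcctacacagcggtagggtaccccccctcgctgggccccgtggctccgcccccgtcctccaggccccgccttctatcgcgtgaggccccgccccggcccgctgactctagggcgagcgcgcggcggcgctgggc
Sema7a: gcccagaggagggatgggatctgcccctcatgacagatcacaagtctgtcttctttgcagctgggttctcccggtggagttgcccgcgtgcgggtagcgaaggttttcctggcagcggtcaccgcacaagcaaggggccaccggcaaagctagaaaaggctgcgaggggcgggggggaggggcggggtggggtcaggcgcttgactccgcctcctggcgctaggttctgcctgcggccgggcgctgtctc
Plxnc1: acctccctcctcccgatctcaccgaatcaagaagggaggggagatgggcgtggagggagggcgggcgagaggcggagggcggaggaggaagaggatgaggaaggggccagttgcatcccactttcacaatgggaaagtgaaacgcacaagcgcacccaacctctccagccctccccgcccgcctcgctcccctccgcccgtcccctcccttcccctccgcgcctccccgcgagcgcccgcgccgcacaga
The printed runs are rich in G and C, at 73.2% in Ntn4, 66.8% in Unc5b, 66.4% in Sema7a and 68.8% in Plxnc1. RefSeq and GENCODE M21 starts differ for Ntn4, whose run begins after the GENCODE gene start at base 93640681 and overlaps no annotated exon. None of the 4 holds the motifs TTCNNNGAA or TGACGTCA.

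Both motifs were searched in the 300 bases around each start, 250 before it and 50 after it. TTCNNNGAA is the general form bound by STAT factors, among them STAT3, which acts downstream of the IL-22 receptor. TGACGTCA is the full cyclic AMP response element. Each reads the same in form on both strands, and the motifs do not overlap in letters. A RefSeq promoter was found for 61 of the 70 genes, 77 promoters in all. TTCNNNGAA stood in 3.9% of these, those of Efna3, Epha3 and Sema3e, against 8.3% of all 32851 promoters. TGACGTCA stood in 1 of the 77, that of Epha2, against 1.79% of all promoters. The 77 promoters were richer in G and C than all promoters. Their median was 69.5% for genes called higher, 63.7% for genes called lower and 64.0% for the others, against 52.7% for all promoters. Whether base content bears on the motif shares was not tested. The 2 receptor promoters with a motif upstream of the start are printed with the motif in capitals, Epha2 at chr4:141300971-141301220 on the plus strand and Epha3 at chr16:63864176-63864425 on the minus strand.
Epha2: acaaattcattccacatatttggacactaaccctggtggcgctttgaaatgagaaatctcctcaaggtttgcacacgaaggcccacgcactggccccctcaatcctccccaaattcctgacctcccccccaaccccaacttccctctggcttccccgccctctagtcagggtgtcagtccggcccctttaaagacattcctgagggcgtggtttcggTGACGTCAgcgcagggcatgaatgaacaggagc
Epha3: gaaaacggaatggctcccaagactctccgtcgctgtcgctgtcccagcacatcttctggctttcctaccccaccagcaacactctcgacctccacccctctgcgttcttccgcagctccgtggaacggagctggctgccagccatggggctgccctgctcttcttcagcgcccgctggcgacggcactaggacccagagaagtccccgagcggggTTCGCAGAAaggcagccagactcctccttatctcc
The Epha2 motif begins 33 bases before the start and the Epha3 motif 35 bases before it. Among the genes that hold a motif, Epha3 was called higher, and Efna3, Sema3e and Epha2 were called lower. A match is a run of letters and not a site shown to be bound.

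Guidance genes were changed in both directions, and more of them fell than rose. After the filter on low counts 60 of the 70 genes could be tested (edgeR quasi-likelihood test with Benjamini-Hochberg adjustment over all 15227 tested genes). Of these 31 were called at an adjusted p under 0.05, which is 51.7%, against 45.7% of all tested genes. There were 9 called higher, or 15% of those tested against 23.6% of all genes, and 22 called lower, or 36.7% against 22.1% of all genes. With a change of at least 2-fold required as well, 20 remained, or 33.3% against 14.3% of all genes. Of these 5 were higher, or 8.33% against 8.03% of all genes, and 15 were lower, or 25% against 6.3% of all genes. The 3 libraries of each genotype did not overlap for 37 of the 60, or 61.7%, against 56% of all genes. The median log2 fold change was -0.21 among the tested guidance genes and 0.03 among all tested genes, on a scale where a negative value is lower in Il22r-/-. Ligands had 5 higher and 13 lower of 34 tested, with a median of -0.23, and receptors had 4 higher and 9 lower of 26 tested, with a median of 0.02.

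**Figure D1:**
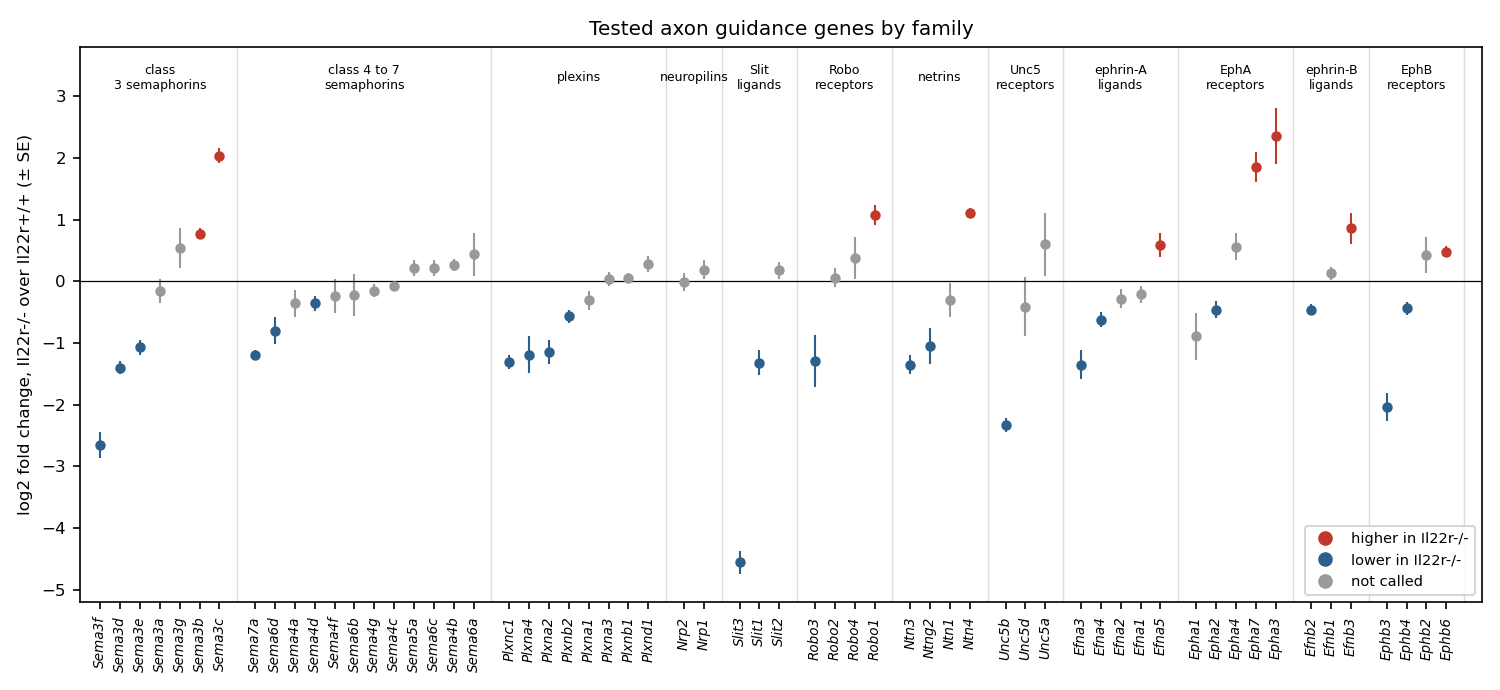
Log2 fold change of the 60 tested guidance genes, Il22r-/- minus Il22r+/+, by family. Points are estimates of the edgeR fit and bars are standard errors. Values run from -4.56 for Slit3 to 2.36 for Epha3, with 22 genes called lower and 9 called higher.

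Slit3, a secreted repellent that binds Robo1 and Robo2 and has the most negative fold change of the tested genes, was scarce in Il22r-/- cells. Its level was 4.46, 7.63 and 7.23 CPM in Il22r-/- libraries, against 149, 172 and 133 CPM in Il22r+/+ libraries. All Il22r-/- libraries lay far below every Il22r+/+ library. The difference was -4.56 ± 0.18 on the log2 scale (SE), or 23.6-fold lower (Benjamini-Hochberg adjusted p = 5.02e-07 in the edgeR quasi-likelihood fit). Slit1, a paralogue best known from the brain, was low in both genotypes and also fell, with 2.73, 2.61 and 2.43 CPM in Il22r-/- and 6.96, 5.37 and 7.17 CPM in Il22r+/+, without overlap. Its change was -1.32 ± 0.20 (Benjamini-Hochberg adjusted p = 4.29e-04 in the edgeR quasi-likelihood fit). Slit2, the remaining Slit, averaged 57.8 ± 11.9 CPM in Il22r-/- and 51.0 ± 3.56 CPM in Il22r+/+ (SD, n = 3 each) and did not pass the test, with a log2 fold change of 0.18 ± 0.14. Without Il22r-/- replicate 2 Slit2 was called higher at 0.33.

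The make-up of the Slit family therefore differed between the genotypes when levels were put on a per-length scale. Summed FPKM (fragments per kilobase of deposited gene length per mega-read) of the 3 Slits was 3.81 ± 0.322 in Il22r-/- and 28.8 ± 2.94 in Il22r+/+. The deposited lengths are 25433 bases for Slit2 and 6067 bases for Slit3, and shares between genes depend on them. Slit3 made up 28.4 ± 8.69% of that sum in Il22r-/- cells and 88.8 ± 2.04% in Il22r+/+ cells, while Slit2 made up 59.9 ± 9.04% and 7.22 ± 1.09%. Slit2 was the most abundant Slit in each Il22r-/- library, with 68.7, 50.7 and 60.4% of the sum, and Slit3 in each Il22r+/+ library, with 88.1, 91.1 and 87.2%. The exact two-sided permutation p was 0.1 for these shares and for the sum, and 0.1 is the smallest value that 3 libraries against 3 can give.

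Of the Robo receptors, the partners of Slits, 1 of 4 rose and 1 fell, or 25% each against 23.6 and 22.1% of all tested genes. Robo2, the most abundant at a mean of 21.4 FPKM in Il22r-/- and 20.8 FPKM in Il22r+/+, had 259.8, 391 and 428 CPM in Il22r-/- libraries and 358, 351 and 323 CPM in Il22r+/+ libraries. The genotypes overlapped, Il22r-/- replicate 1 was the lowest library, and the change of 0.06 ± 0.16 did not pass the test. Robo1, the broadly expressed Slit receptor, had 44.7, 56.7 and 72.1 CPM in Il22r-/- and 29.2, 27.7 and 25.3 CPM in Il22r+/+. All 3 Il22r-/- libraries were higher, by 1.07 ± 0.16 on the log2 scale or 2.10-fold (Benjamini-Hochberg adjusted p = 5.71e-04 in the edgeR quasi-likelihood fit). Robo1 took 14.1 ± 1.11% of the summed Robo FPKM in Il22r-/- and 7.45 ± 0.152% in Il22r+/+. Robo3, a divergent family member known from crossing axons of the hindbrain, averaged 0.555 ± 0.258 CPM in Il22r-/- and 1.36 ± 0.169 CPM in Il22r+/+ and was called lower at -1.29 ± 0.42. That call was lost without Il22r-/- replicate 1 or any of the 3 Il22r+/+ libraries, with log2 fold changes of -0.95 and -1.36 to -1.19. The limma fit on log2(FPKM + 1) also lost it. Robo4, the endothelial Robo, stood at 1.08 ± 0.123 CPM in Il22r-/- and 0.827 ± 0.116 CPM in Il22r+/+ and did not pass the test.

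Class 3 semaphorins, the secreted ones, changed in both directions, with 2 of 7 called higher and 3 called lower, or 28.6 and 42.9% against 23.6 and 22.1% of all tested genes. Sema3c, a cue for cardiac outflow and vessel development, had 203, 199 and 266 CPM in Il22r-/- libraries and 51.1, 57.8 and 53.0 CPM in Il22r+/+ libraries. Every Il22r-/- library was above every Il22r+/+ library, and the rise was 2.04 ± 0.12 on the log2 scale, or 4.12-fold (Benjamini-Hochberg adjusted p = 8.42e-07 in the edgeR quasi-likelihood fit). Sema3f, the neuropilin-2 ligand, had 7.46, 11.4 and 15.4 CPM in Il22r-/- and 72.0, 67.7 and 73.4 CPM in Il22r+/+. It was lower in all Il22r-/- libraries, by -2.65 ± 0.21 on the log2 scale, a 6.28-fold fall (Benjamini-Hochberg adjusted p = 3.58e-05 in the edgeR quasi-likelihood fit). Sema3d, which has the highest mean FPKM of the class over both genotypes, had 110.0, 107 and 129.7 CPM in Il22r-/- and 301, 334 and 278 CPM in Il22r+/+. It did not overlap between the genotypes and fell by 1.40 ± 0.10 on the log2 scale, or 2.63-fold. Sema3e, which can signal through Plxnd1 without a neuropilin, had 103, 126 and 146 CPM in Il22r-/- and 263, 248 and 276 CPM in Il22r+/+. These groups were also apart, at -1.07 ± 0.12 on the log2 scale or 2.09-fold lower.

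The remaining class 3 genes changed less. Sema3b, known in human tissue as a candidate tumour suppressor, averaged 78.8 ± 7.71 CPM in Il22r-/- and 46.3 ± 3.47 CPM in Il22r+/+ and was called higher at 0.77 ± 0.09. Sema3a, the founding repellent cue that binds neuropilin-1, averaged 17.8 ± 5.50 CPM in Il22r-/- and 19.7 ± 1.28 CPM in Il22r+/+ and did not pass the test, nor did Sema3g at 4.52 ± 2.13 and 3.09 ± 0.294 CPM. Without Il22r-/- replicate 3 Sema3a was called lower at -0.43, and without Il22r-/- replicate 1 Sema3g was called higher at 0.84. On the per-length scale the summed FPKM of the class was 79.9 ± 9.76 in Il22r-/- and 99.3 ± 2.03 in Il22r+/+. Sema3c was the leading class 3 semaphorin in Il22r-/- cells, with 39.3 ± 2.94% of that sum against 7.82 ± 0.377% in Il22r+/+ cells. Sema3d led in Il22r+/+ cells, with 17.0 ± 0.901% in Il22r-/- and 36.6 ± 2.56% in Il22r+/+, followed by Sema3e with 17.0 ± 1.21% and 29.2 ± 2.22%. The exact two-sided permutation p was 0.1 for each of these shares, the smallest possible.

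**Figure D2:**
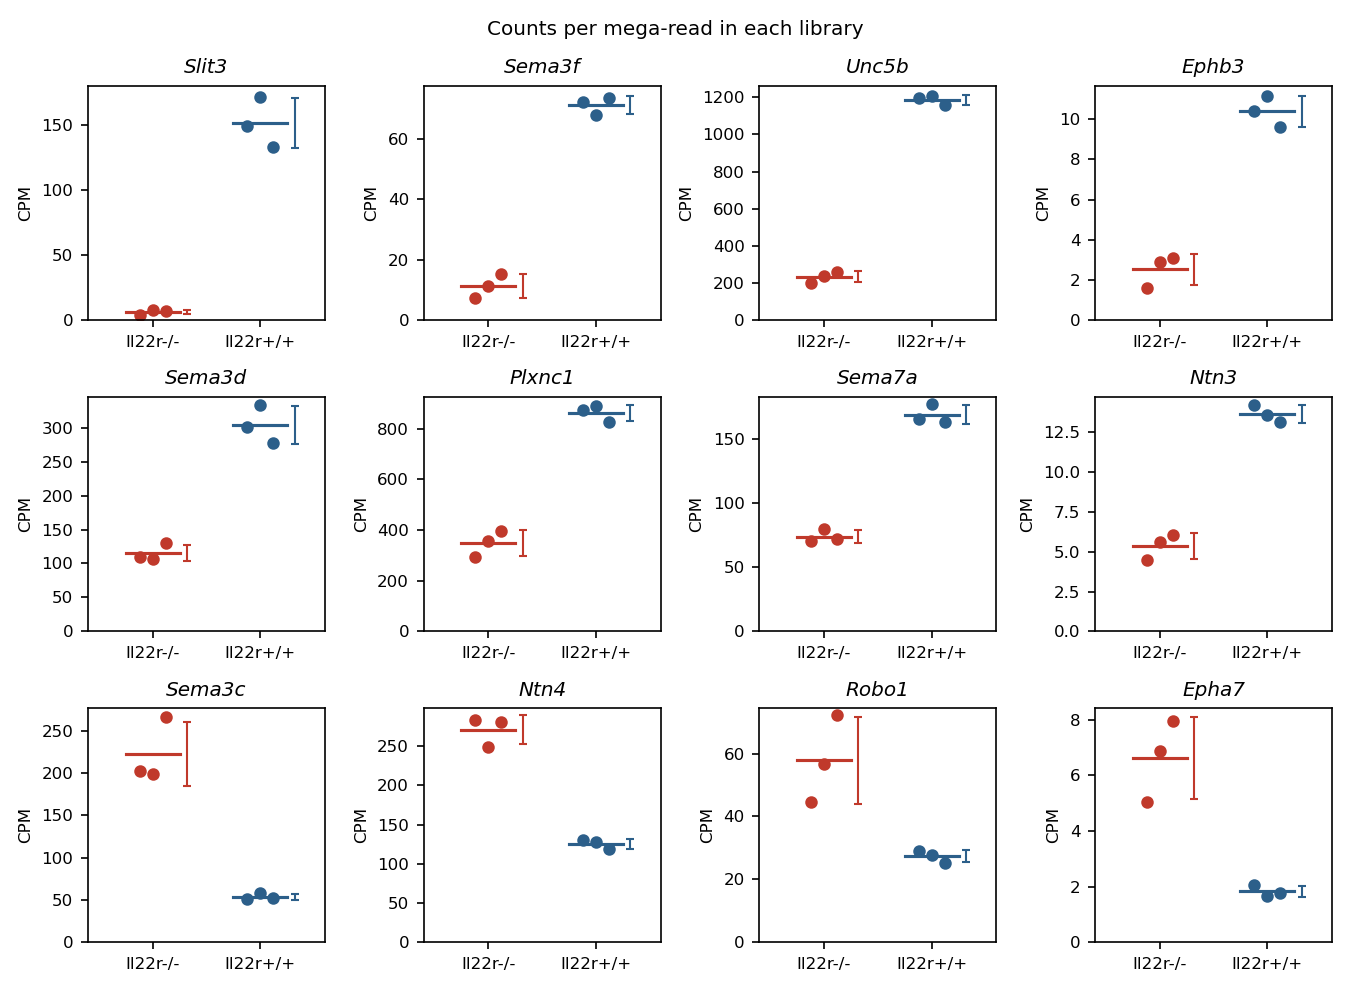
Level in CPM, on a linear axis from 0, of 12 guidance genes in each of the 6 libraries, Il22r-/- to the left of Il22r+/+, with points for libraries, horizontal lines for means and bars for SD (n = 3). Slit3, Sema3f and Unc5b lie lower in all 3 Il22r-/- libraries, and Sema3c, Ntn4 and Robo1 lie higher in them.

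Among the membrane-bound semaphorins of classes 4 to 7, none was called higher and 3 of 12 tested were called lower, or 25% called against 45.7% of all tested genes. That is 25% lower against 22.1% of all tested genes, and 0% higher against 23.6%. Sema7a, which is held at the membrane by a lipid anchor and binds Plxnc1 and beta-1 integrins, had 70.8, 79.7 and 71.8 CPM in Il22r-/- libraries and 166, 178 and 164 CPM in Il22r+/+ libraries. The genotypes were clearly apart, with Sema7a lower in all Il22r-/- libraries at -1.19 ± 0.08 on the log2 scale or 2.28-fold (Benjamini-Hochberg adjusted p = 1.43e-06 in the edgeR quasi-likelihood fit). Its share of the summed FPKM of these semaphorins was 24.2 ± 2.93% in Il22r-/- and 43.1 ± 1.74% in Il22r+/+. Sema6d, a plexin-A1 ligand of the developing heart, averaged 35.4 ± 10.1 CPM in Il22r-/- and 61.5 ± 9.28 CPM in Il22r+/+, a called log2 fold change of -0.80 ± 0.22. The Sema6d call was lost without Il22r-/- replicate 1, Il22r+/+ replicate 1 or Il22r+/+ replicate 3, at -0.88, -0.78 and -0.70. Sema4d, the plexin-B1 ligand first known from T cells, averaged 17.0 ± 2.19 CPM in Il22r-/- and 21.8 ± 1.08 CPM in Il22r+/+ and was called lower at -0.36 ± 0.12. Sema4d lost its call without Il22r-/- replicate 1 at -0.27, without each Il22r+/+ library at -0.38 to -0.32, and at -0.26 when libraries were scaled to size alone. The limma fit on log2(FPKM + 0.1) also lost it.

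Sema5a, a transmembrane semaphorin with thrombospondin repeats, averaged 623 ± 129.6 CPM in Il22r-/- and 538 ± 26.8 CPM in Il22r+/+ and did not pass the test. Per length it led these classes in Il22r-/- cells, at 33.7 ± 7.31 FPKM against 29.6 ± 1.45 FPKM in Il22r+/+ cells, where Sema7a led. Sema4b stood at 75.1 ± 9.93 CPM in Il22r-/- and 62.9 ± 3.92 CPM in Il22r+/+ and had the adjusted p nearest to the threshold among the uncalled genes (Benjamini-Hochberg adjusted p = 0.0565 in the edgeR quasi-likelihood fit). Sema4b was called higher at 0.31 without Il22r-/- replicate 2, at 0.36 with scaling to library size alone and at 0.26 with no filter. Sema4a, Sema4c, Sema4f, Sema4g, Sema6a, Sema6b and Sema6c, transmembrane ligands of the plexins, did not pass the test either. Their log2 fold changes lay between -0.36 for Sema4a and 0.44 for Sema6a. The summed FPKM of the 13 genes of these classes was 94.5 ± 9.49 in Il22r-/- and 122 ± 1.01 in Il22r+/+.

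Among plexins, the main semaphorin receptors, 4 of 8 tested genes were called lower and none higher, or 50% called against 45.7% of all tested genes. That is 50% lower against 22.1% of all tested genes, and 0% higher against 23.6%. Plxnc1, the receptor of Sema7a and the plexin with the highest mean FPKM over both genotypes, had 295, 355 and 397 CPM in Il22r-/- libraries and 871, 889 and 826 CPM in Il22r+/+ libraries. The highest Il22r-/- library lay well under the lowest Il22r+/+ library, and the change was -1.31 ± 0.11 on the log2 scale or 2.47-fold lower (Benjamini-Hochberg adjusted p = 8.19e-06 in the edgeR quasi-likelihood fit). Plxna2, a co-receptor of class 3 semaphorins and a receptor of class 6, had 117, 173 and 205 CPM in Il22r-/- and 359, 399.9 and 343 CPM in Il22r+/+. All Il22r-/- libraries were lower and replicate 1 was the lowest, with a log2 fold change of -1.15 ± 0.19. Plxna4, best known from sensory axons, was scarce at 2.63, 2.03 and 1.25 CPM in Il22r-/- and 5.38, 3.34 and 4.92 CPM in Il22r+/+. Its groups did not overlap either, and it was called lower at -1.19 ± 0.30. Plxnb2, a receptor of class 4 semaphorins with broad expression in epithelia, averaged 440.3 ± 62.6 CPM in Il22r-/- and 652 ± 25.8 CPM in Il22r+/+ and was called lower at -0.57 ± 0.11.

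The other plexins did not pass the test. Plxna1, a co-receptor of class 3 and class 6 semaphorins, averaged 428 ± 88.2 CPM in Il22r-/- and 531 ± 59.8 CPM in Il22r+/+, with a log2 fold change of -0.31 ± 0.15, and an antisense gene overlaps 10.7% of its exon length. Plxna1 was called lower at -0.31 with no filter and at -0.50 without Il22r-/- replicate 3, whose 524 CPM lay inside the Il22r+/+ range of 467 to 585 CPM. Plxnb1, the Sema4d receptor, stood at 216 ± 8.43 CPM in Il22r-/- and 207 ± 10.2 CPM in Il22r+/+, Plxna3 at 32.4 ± 4.35 and 31.5 ± 1.47 CPM, and Plxnd1, the Sema3e receptor, at 22.7 ± 3.10 and 18.6 ± 1.82 CPM. Plxnd1 was called higher at 0.37 without Il22r-/- replicate 2 and at 0.38 with scaling to library size alone. The neuropilins, which hold class 3 semaphorins for the plexins, gave no call. Nrp2, the more abundant, had 106, 102 and 126 CPM in Il22r-/- libraries and 119, 85.7 and 129.6 CPM in Il22r+/+ libraries. The genotypes overlapped throughout, and the log2 fold change was -0.01 ± 0.15, with a sign that turned under several alternatives. Nrp1 averaged 36.4 ± 9.64 CPM in Il22r-/- and 32.1 ± 1.29 CPM in Il22r+/+ and did not pass the test.

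Set side by side per length, the plexins summed to 187 ± 28.4 FPKM in Il22r-/- and 305 ± 15.9 FPKM in Il22r+/+, whereas the neuropilins summed to 13.2 ± 1.16 and 13.1 ± 1.90 FPKM. Plxnc1 made up 22.5 ± 0.980% of the plexin sum in Il22r-/- and 34.9 ± 0.580% in Il22r+/+. Plxnb2 made up 30.7 ± 0.548% and 28.5 ± 0.599%, and Plxna1 25.3 ± 1.58% and 19.8 ± 1.20%. Plxnc1 was the leading plexin in each Il22r+/+ library and Plxnb2 in each Il22r-/- library. The exact two-sided permutation p was 0.1 for the plexin sum and 0.8 for the neuropilin sum.

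Netrins were dominated by 1 ligand that rose and their Unc5 receptors by 1 gene that fell. Ntn4, a laminin-related netrin of basement membranes, had 283, 249 and 281 CPM in Il22r-/- libraries and 130.5, 128 and 118 CPM in Il22r+/+ libraries. It was higher in every Il22r-/- library, by 1.11 ± 0.08 on the log2 scale or 2.16-fold (Benjamini-Hochberg adjusted p = 3.23e-06 in the edgeR quasi-likelihood fit). Ntn3, a netrin related to netrin-1, went the other way, with 4.46, 5.60 and 6.04 CPM in Il22r-/- and 14.2, 13.5 and 13.1 CPM in Il22r+/+. The groups were apart and Ntn3 was lower by 2.55-fold, a log2 fold change of -1.35 ± 0.15. Ntng2, a lipid-anchored netrin-G that binds a synaptic partner and not the Unc5 receptors, had 2.63, 1.28 and 1.71 CPM in Il22r-/- and 3.39, 3.82 and 4.44 CPM in Il22r+/+. It did not overlap and was called lower at -1.05 ± 0.29, but without Il22r+/+ replicate 3 the call was lost at -0.94. An annotated non-coding gene on the same strand covers 14.0% of the Ntng2 exon length. Ntn1, the classical netrin, averaged 3.09 ± 0.747 CPM in Il22r-/- and 3.84 ± 1.08 CPM in Il22r+/+ and did not pass the test.

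Unc5b, a netrin receptor with a death domain that also binds Robo4 and Flrt proteins, had the highest FPKM of all guidance receptors in the Il22r+/+ cells. Its level was 202, 241 and 263 CPM in Il22r-/- libraries and 1194, 1204 and 1157 CPM in Il22r+/+ libraries. The groups lay far apart, at -2.33 ± 0.11 on the log2 scale or 5.04-fold lower in Il22r-/- (Benjamini-Hochberg adjusted p = 1.98e-07 in the edgeR quasi-likelihood fit). On the per-length scale Unc5b averaged 38.0 ± 5.26 FPKM in Il22r-/- and 195 ± 3.74 FPKM in Il22r+/+. It supplied 99.4 ± 0.278% of the summed Unc5 FPKM in Il22r-/- and 99.9 ± 0.0202% in Il22r+/+. Unc5a stood at 0.769 ± 0.419 CPM in Il22r-/- and 0.494 ± 0.195 CPM in Il22r+/+ and Unc5d at 0.594 ± 0.349 and 0.768 ± 0.113 CPM, and neither netrin receptor passed the test. The netrin family summed to 75.2 ± 5.24 FPKM in Il22r-/- and 38.8 ± 1.69 FPKM in Il22r+/+, and the Unc5 family to 38.2 ± 5.39 and 195 ± 3.77 FPKM. Summed netrin FPKM exceeded summed Unc5 FPKM in each Il22r-/- library and was below it in each Il22r+/+ library. The netrin sum was mostly Ntn4, at 97.2% in Il22r-/- and 88.7% in Il22r+/+, and it includes the netrin-G genes. It is therefore not a balance of ligand and receptor.

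**Figure D3:**
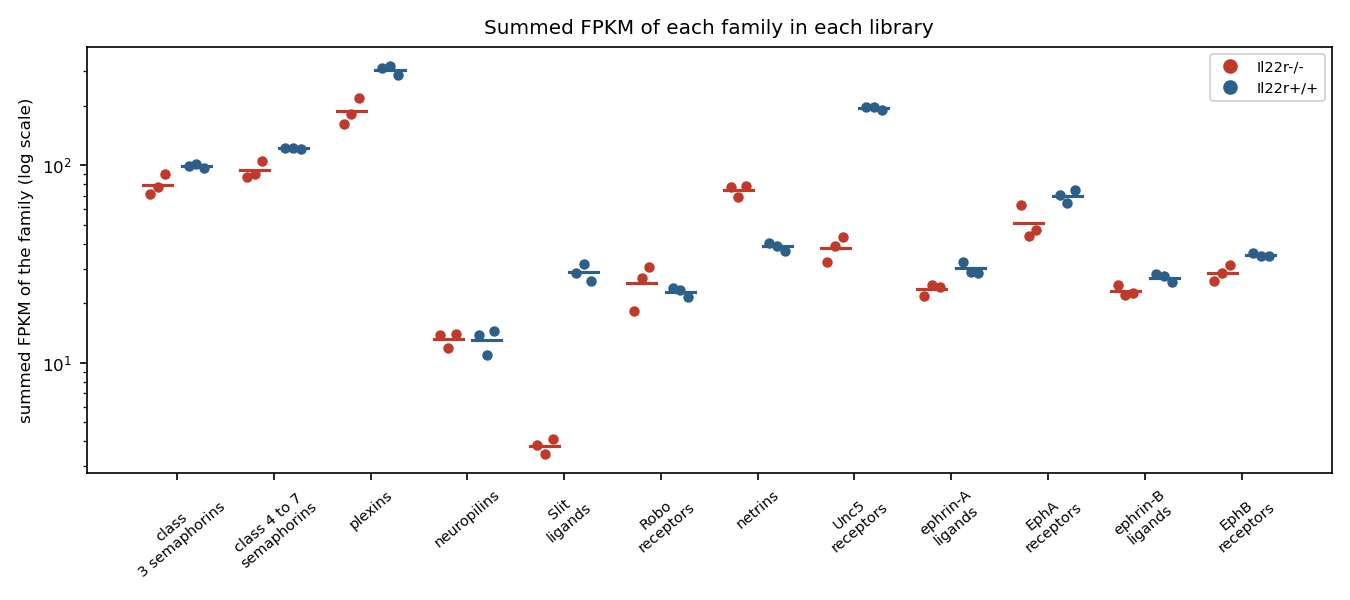
Summed FPKM of each of the 12 families in each library, on a log axis, Il22r-/- to the left of Il22r+/+. Points are libraries and horizontal lines are means. The Slit and Unc5 sums are lower in all Il22r-/- libraries, the netrin sum is higher in them, and the neuropilin sums overlap.

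Ephrins, the ligands of the Eph receptors, changed in both directions, with 1 of 5 ephrin-A and 1 of 3 ephrin-B ligands called higher, and 2 and 1 called lower. That is 20 and 33.3% higher against 23.6% of all tested genes, and 40 and 33.3% lower against 22.1%. Efna3, a lipid-anchored ephrin, had 1.94, 1.65 and 1.77 CPM in Il22r-/- libraries and 4.85, 5.13 and 3.79 CPM in Il22r+/+ libraries. The groups did not overlap, and Efna3 was lower at -1.35 ± 0.23 on the log2 scale (Benjamini-Hochberg adjusted p = 9.06e-04 in the edgeR quasi-likelihood fit). Efna4, the ephrin-A with the highest mean FPKM over both genotypes, had 12.4, 14.9 and 12.7 CPM in Il22r-/- and 22.2, 19.8 and 19.7 CPM in Il22r+/+. It was lower without overlap, at -0.62 ± 0.12. Antisense genes overlap 14.1% of the Efna3 and 10.5% of the Efna4 exon length, and the strand setting of the counting is not stated, so their reads cannot be told apart there. Efna5 averaged 17.4 ± 4.66 CPM in Il22r-/- and 11.5 ± 1.45 CPM in Il22r+/+ and was called higher at 0.59 ± 0.19. The Efna5 call was lost without Il22r-/- replicate 3, at 0.34, a library with 22.6 CPM against 16.0 and 13.6 CPM in Il22r-/- replicates 1 and 2. It was also lost without each Il22r+/+ library, at 0.49 to 0.66. The limma fits on log2(FPKM + 1) and log2(FPKM + 0.1) lost it too, at 0.43 and 0.53. Efna1, the main ligand of Epha2, and Efna2 did not pass the test, at -0.21 ± 0.14 and -0.28 ± 0.15.

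Efnb2, the transmembrane ligand of Ephb4 that marks arteries, was the most abundant ephrin-B per length, with 92.2, 75.0 and 90.6 CPM in Il22r-/- libraries and 121, 118 and 115 CPM in Il22r+/+ libraries. All Il22r-/- libraries were lower, by 1.37-fold, a log2 fold change of -0.46 ± 0.09 (Benjamini-Hochberg adjusted p = 0.00169 in the edgeR quasi-likelihood fit). Efnb3, known from the midline of the spinal cord, averaged 3.28 ± 0.574 CPM in Il22r-/- and 1.81 ± 0.108 CPM in Il22r+/+ and was called higher at 0.86 ± 0.25. Without Il22r-/- replicate 1 or Il22r+/+ replicate 3 the Efnb3 call was lost, at 0.69 and 0.82. Efnb1, an X-linked ephrin of craniofacial development, averaged 32.1 ± 3.84 CPM in Il22r-/- and 29.4 ± 2.81 CPM in Il22r+/+ and did not pass the test.

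Epha2, the receptor that supplied nearly all Eph-A message, had 285, 194 and 205 CPM in Il22r-/- libraries and 315, 288 and 335 CPM in Il22r+/+ libraries. Replicate 1 of Il22r-/- came close to the lowest Il22r+/+ library without overlapping it. Epha2 was called lower at -0.46 ± 0.14 (Benjamini-Hochberg adjusted p = 0.0236 in the edgeR quasi-likelihood fit). That call was lost without Il22r-/- replicate 2 or 3, at -0.37 and -0.41, and without Il22r+/+ replicate 1 or 3, at -0.45 and -0.40. Scaling to library size alone also ended it, at -0.35. Epha2 took 95.8 ± 1.33% of the summed Eph-A FPKM in Il22r-/- and 98.1 ± 0.316% in Il22r+/+.

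The low-abundance Eph-A receptors that were called went the other way. Epha7, a receptor of the ephrin-A ligands in cortex and neural tube, had 5.04, 6.88 and 7.95 CPM in Il22r-/- libraries and 2.05, 1.67 and 1.78 CPM in Il22r+/+ libraries. It was higher in all Il22r-/- libraries, by 1.85 ± 0.24 on the log2 scale or 3.60-fold (Benjamini-Hochberg adjusted p = 1.37e-04 in the edgeR quasi-likelihood fit). Epha3, an ephrin-A5 receptor, had 1.31, 2.99 and 3.09 CPM in Il22r-/- and 0.643, 0.477 and 0.296 CPM in Il22r+/+. The groups did not overlap, Il22r-/- replicate 1 was the lowest of its genotype, and the rise was 2.36 ± 0.45 (Benjamini-Hochberg adjusted p = 0.00164 in the edgeR quasi-likelihood fit). Epha4, a receptor of both ephrin classes, averaged 6.55 ± 1.75 CPM in Il22r-/- and 4.41 ± 0.387 CPM in Il22r+/+ and missed the threshold, as did Epha1 at 0.990 ± 0.445 and 1.87 ± 0.462 CPM. Without Il22r-/- replicate 1 both were called, Epha4 higher at 0.75 and Epha1 lower at -1.30, and Epha4 was also called higher with scaling to library size alone at 0.66 and with no filter at 0.56.

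Ephb3, a receptor of intestinal crypts and commissural axons, had the largest fall among the Ephs, with 1.63, 2.88 and 3.09 CPM in Il22r-/- libraries and 10.4, 11.2 and 9.59 CPM in Il22r+/+ libraries. The genotypes were apart and the change was -2.04 ± 0.23 on the log2 scale, or 4.12-fold lower (Benjamini-Hochberg adjusted p = 5.85e-05 in the edgeR quasi-likelihood fit). Ephb4, the venous receptor of Efnb2 and the most abundant Eph-B per length, had 80.0, 90.9 and 105 CPM in Il22r-/- and 129, 121 and 122 CPM in Il22r+/+. It was lower in all Il22r-/- libraries, at -0.44 ± 0.10. Ephb6, which lacks kinase activity, averaged 29.8 ± 1.20 CPM in Il22r-/- and 21.4 ± 0.396 CPM in Il22r+/+ and was called higher at 0.48 ± 0.09. Ephb2 averaged 3.15 ± 0.742 CPM in Il22r-/- and 2.35 ± 0.644 CPM in Il22r+/+ and did not pass the test. Ephb4 took 69.7 ± 3.51% of the summed Eph-B FPKM in Il22r-/- and 78.3 ± 1.02% in Il22r+/+, and Ephb6 took 28.0 ± 3.49% and 16.6 ± 0.662%.

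**Figure D4:**
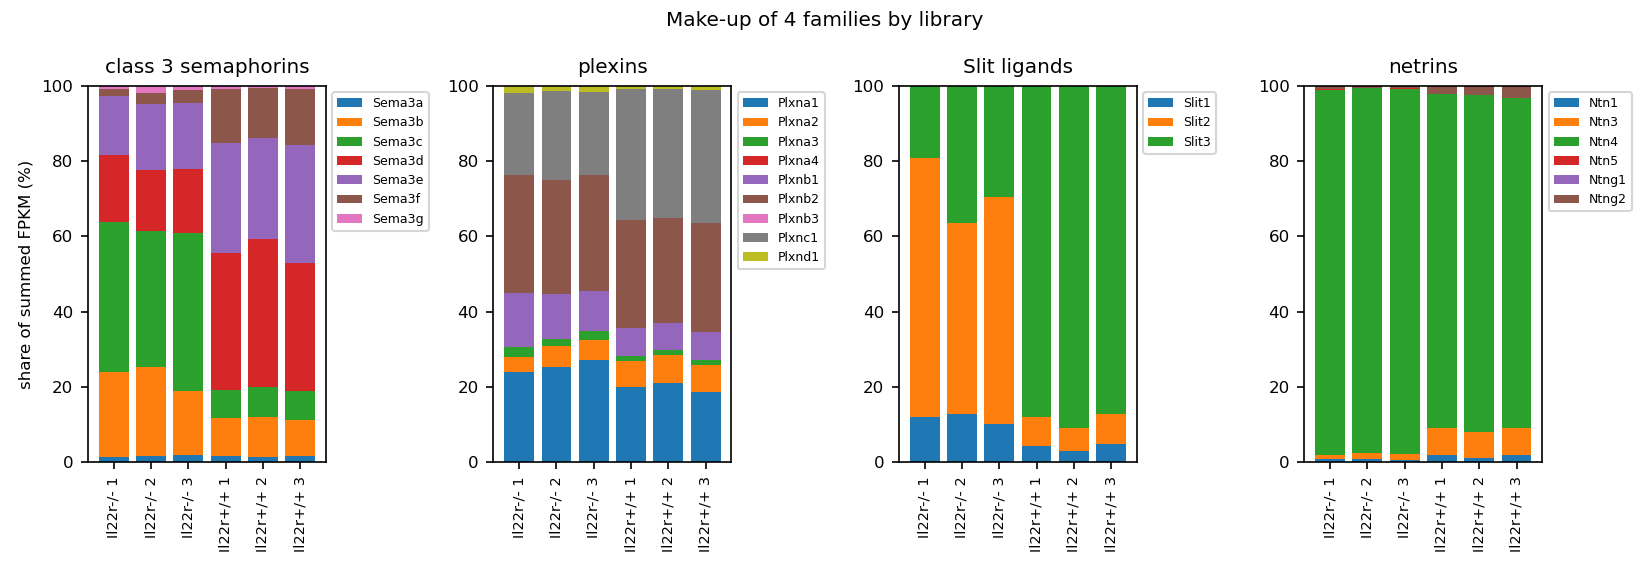
Stacked bars of the share of summed FPKM, in percent, taken by each member of the class 3 semaphorins, plexins, Slits and netrins, with 1 bar per library and Il22r-/- to the left of Il22r+/+. Slit3 takes 19.2 to 36.5% of the Slit sum in Il22r-/- libraries and 87.2 to 91.1% in Il22r+/+ libraries, and Sema3c takes 36.1 to 41.9% of the class 3 sum in Il22r-/- and 7.43 to 8.18% in Il22r+/+.

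Known ligand and receptor pairs, and members of partner families, can be read side by side from these values. Sema7a and Plxnc1 were both lower in Il22r-/-, by 2.28-fold and 2.47-fold, and so were Efnb2 and Ephb4, by 1.37-fold and 1.35-fold. Slit3 fell while Robo1 rose and Robo2 gave no call. Ntn4 rose while Unc5b, a receptor of the netrin family, fell. Sema3e fell while its receptor Plxnd1 gave no call, and Sema3c rose and Sema3f fell while neither neuropilin was called. Efna1 and Plxnb1 gave no call while their partners Epha2 and Sema4d were called lower, calls that were lost in 5 and 6 of 15 alternatives. Efna5 was called higher together with its receptors Epha3 and Epha7, although the Efna5 call was lost in 6 of 15 alternatives. Efna3 and Efna4, ligands of the same receptor class, were called lower.

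The 10 genes below the count filter are Epha5, Epha6, Epha8, Epha10, Ephb1, Ntn5, Ntng1, Plxnb3, Sema5b and Unc5c. Of these Epha5, an ephrin-A receptor of the nervous system, had 27 reads in all Il22r-/- libraries and 1 in all Il22r+/+ libraries. That is a ratio of 27.8 after scaling to total reads, with an exact 95% counting interval of 4.58 to 1137. The Il22r-/- reads were uneven, with 18, 6 and 3 in replicates 1, 2 and 3. Plxnb3, a receptor of Sema5a, had 5 reads in Il22r-/- and 32 in Il22r+/+, a ratio of 0.161 with an interval of 0.0489 to 0.416. Its Il22r+/+ reads were 10, 3 and 19 in replicates 1, 2 and 3. These intervals cover counting error only. In the alternative with no filter on counts Epha5 was called higher and Plxnb3 lower (Benjamini-Hochberg adjusted p = 0.00158 and 0.00723 in the edgeR quasi-likelihood fit), and none of the other 7 with reads was called. Epha10 had 0 reads in all libraries, which allows a level of up to 0.0586 CPM in Il22r-/- and 0.0570 CPM in Il22r+/+ (3 counts over the summed libraries of each genotype). The other 7 had at most 15 reads in all 6 libraries.

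Several of these genes are neighbours in the genome, and neighbours did not always move together. On chromosome 3, Efna3 and Efna4, which both fell, lie 10.4 kb apart, and Efna1, which gave no call, lies 32.8 kb from Efna3. On chromosome 9, Sema3b, which rose, and Sema3f, which fell, lie 72.3 kb apart. On chromosome 10, Ntn4, which rose, and Plxnc1, which fell, lie 1.04 Mb apart. A stretch of chromosome 5 holds Sema3d, Sema3a and Sema3e, with gaps of 0.54 and 0.42 Mb between neighbours, and Sema3c lies 3.97 Mb from Sema3a. Of these Sema3d and Sema3e fell, Sema3c rose and Sema3a gave no call. Robo1, which rose, and Robo2, which gave no call, are 0.85 Mb apart on chromosome 16. Robo3, which was called lower, and Robo4, which gave no call, are 553 bases apart on chromosome 9. The interleukin-22 receptor gene Il22ra1 is at chr4:135728172-135752140, and the nearest guidance gene, Ephb2, lies 0.9 Mb from it and gave no call. Epha2, called lower, lies 5.55 Mb from it, and Epha8, which was not tested, 1.18 Mb.

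Partners of these families were described from a list of 103 further guidance genes in the table, of which 92 were tested. Of these 21 were called higher and 24 lower, 48.9% in all, against 45.7% of all tested genes, with 22.8% higher against 23.6% and 26.1% lower against 22.1%. These shares are close to those of all genes, and the median log2 fold change was -0.09 against 0.03. Among 16 tested co-receptors and further cues, 5 rose and 4 fell, or 56.25% called against 45.7% of all genes. That is 31.25% higher against 23.6% and 25% lower against 22.1%. Flrt3 and Flrt2, leucine-rich repeat proteins that bind Unc5 receptors, rose by 2.02 ± 0.21 and 0.83 ± 0.18 on the log2 scale, and the collagen-binding integrin subunit Itga1 by 0.97 ± 0.14. The adhesion protein Cntn2 changed by -3.55 ± 0.37, with 4.15 ± 2.04 CPM in Il22r-/- and 47.8 ± 12.6 CPM in Il22r+/+. Flrt1 and Itgb1, the beta-1 integrin subunit that binds Sema7a, were lower at -1.28 ± 0.14 and -0.40 ± 0.08. Dcc, the classical netrin receptor, is named although the rule for naming did not select it and its values had been seen, and it averaged 1.42 ± 0.518 CPM in Il22r-/- and 0.119 ± 0.119 CPM in Il22r+/+ and was called higher.

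Of 68 tested cytoplasmic effectors 16 were called higher and 15 lower, or 45.6% in all, the share seen over all tested genes being 45.7%. Dock4, an activator of Rac, rose by 1.68 ± 0.16 on the log2 scale, the actin-binding Ablim1 by 1.25 ± 0.10 and the Rac inhibitor Chn1 by 1.23 ± 0.15. Mical2, which oxidises actin, was lower at -2.43 ± 0.13, with 163 ± 29.8 CPM in Il22r-/- and 882 ± 45.0 CPM in Il22r+/+. Rnd1, a small GTPase that binds plexins, was lower at -1.90 ± 0.31, and Srgap3, a GTPase activator of the Slit-Robo pathway, at -1.89 ± 0.10. Among proteases that shed or cut guidance proteins, none of 8 tested was called higher, against 23.6% of all genes, and 5 were called lower, or 62.5% against 22.1%. Bmp1, which trims procollagens, changed by -0.89 ± 0.07, the membrane protease Mmp14 by -0.68 ± 0.09 and the gelatinase Mmp2 by -0.47 ± 0.12.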

How the data were processed

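The authors deposited raw read counts for 55860 genes, made with featureCounts 1.5.0-p3 on mm10 per the submitters' processing notes. Aligner, read length and strand setting are not stated there. Deposited FPKM values were found to be the same counts over gene length and a library constant. Relative to the count total the constant was 1.05, 1.03 and 1.00 in Il22r-/- libraries and 0.939, 0.938 and 0.936 in Il22r+/+ libraries. This difference between the genotypes enters FPKM levels and family sums, but not shares.

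Genes that passed filterByExpr (15227) were TMM-scaled and tested in R 4.3.3 with the robust quasi-likelihood fit of edgeR 4.0.16, with genotype as the only term. Adjustment was by Benjamini-Hochberg over those genes and the threshold was an adjusted p under 0.05. Log2 fold changes are Il22r-/- minus Il22r+/+, their errors are SE, and other errors are SD over 3 libraries. CPM uses TMM-scaled totals, and FPKM served only for family sums, shares and levels between genes, compared by exact two-sided permutation over libraries. The fit was also run on simulated counts with a common dispersion for all genes and few changed genes. That setting is simpler than these libraries, so its outcome is not used as support here. Alternatives were DESeq2 1.42.0, limma 3.58.1 on counts and on log2(FPKM + 1) or log2(FPKM + 0.1), other filters and scalings, a replicate block, and each library left out. Positions of the 70 genes equal those of GENCODE M21. Counting intervals are exact at 95%.

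Values in every library are given for genes called with at least a 2-fold change whose mean reached 1 CPM, and for the member of each of 12 families with the highest mean FPKM. Further guidance genes were named as the 3 largest called changes per direction and sub-list among those of at least 5 CPM on average. The genes and lists were chosen with earlier results of these data known. Samples were grouped by the genotype label. Nothing in the labels says that libraries came from separate animals or cultures, so p-values measure only the spread between these libraries, which may be technical.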

Additional observations from a re-analysis of the deposited data

How the results depend on the processing

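Over 15 alternatives the number of guidance genes called stayed between 24 and 36, against 31 as reported, and 24 of the 31 were called under every alternative. The 7 that lost the call at least once are Efna5, Efnb3, Epha2, Ntng2, Robo3, Sema4d and Sema6d, and 8 uncalled genes were called at least once. Leaving out 1 library gave 24 to 33 genes called, and ranges of 1 to 2 for ephrin-B ligands called, 2 to 5 for EphA receptors called, 1 to 2 for Robo receptors called and 1 to 4 for class 4 to 7 semaphorins called. EphA receptors called were 5 with no filter, and Robo receptors called were 1 with limma on log2(FPKM + 1). Scaling to library size alone moved the median log2 fold change of all genes to 0.132, against 0.029, and higher calls to 63.6% of all calls, against 51.6%. It left 12 guidance genes higher and 20 lower.

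Log2 fold changes that turned sign belonged to uncalled genes. With 1 library left out they ranged from -0.06 to 0.28 for Nrp1, -0.16 to 0.12 for Nrp2, -0.08 to 0.12 for Plxna3, -0.10 to 0.24 for Robo2, -0.43 to 0.03 for Sema3a and -0.46 to 0.12 for Sema6b. Library size alone gave 0.10 for Nrp2 and 0.03 for Sema4c, and limma-voom gave 0.01 for Nrp2. The Nrp2 share of the neuropilin sum differed by -2.04 percentage points, and by -4.87 to 1.43 points with 1 library left out. The cause of these shifts was not tested.

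The labels do not say whether the replicate numbers pair the libraries. Deviations of same-numbered libraries correlated at 0.0260, -0.0406 and -0.0278. These values show no sign of pairing over all genes, but they cannot exclude a small or gene-limited one. With a replicate block 32 guidance genes were called and all genes called came to 6405, against 31 and 6963 without it, and Nrp2 stood at 0.01. The added gene is Sema4b, at 0.25. Depth limits the 10 untested genes, which had at most 37 reads each in all libraries.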
